A study of Culex quinquefasciatus with 7 samples.

Results

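Mature adult females of Culex quinquefasciatus, the southern house mosquito, were compared with newly emerged ones through 5 of the 7 libraries of a time series of whole-body messenger RNA. The mature group holds the libraries at 48, 60 and 72 h after eclosion, when the adult leaves the pupal case. The newly emerged group holds the libraries at 2 and 12 h. The group names stand for these hours only, since the labels give no stage beyond adult and no strain, diet or mating state. Every library is a pool of 200 whole females from mosquitoes reared with 12 h of light a day. The libraries at 24 and 36 h belong to neither group and were kept out of the reported fit between the groups, so they show where females between the groups stood. They enter a fit only in the alternatives that say so. There is 1 library per time, so the times of a group stand in for replicates. The spread within a group therefore holds technical noise together with real change from 2 to 12 h or from 48 to 72 h. Time of day may also differ between the times of a group, and it cannot be told apart from age here. The p-values measure a difference against that spread, not against animals or pools of the same age.

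In mosquitoes, adult life begins with hardening and darkening of the cuticle, maturation of the flight muscles and breakdown of pupal tissue. The female then becomes ready to fly, feed and mate, and in many species her primary follicles and fat body reach, under juvenile hormone, a resting state from which a blood meal starts yolk production. The labels do not say where in this course the sampled females stood, and whether any had begun yolk production was not tested. Genes are given by the deposited table's own identifiers, which begin with CPIJ. The table holds no gene names, and of its 20305 identifiers 0 were found among the 18458 genes of a RefSeq table for this species. No role is therefore assigned to any gene, and tissue markers could not be read.

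Values are FPKM, fragments per kilobase of gene model relative to all fragments mapped in that library, which follow a transcript's share of the library. Their sum over all genes was 470874, 479137 and 496974 at 48, 60 and 72 h, against 431475 and 428805 at 2 and 12 h. Deposited differences and counts at a fixed FPKM level carry this unlike total. In whole bodies, fewer cells of a type and less RNA per cell cannot be told apart. The steps between low values put the depth of the mature libraries at 0.832, 0.744 and 1.19 of the 2 h library at 48, 60 and 72 h, and that of the 12 h library at 0.930. Absolute depth is unknown, so no counting interval was made.

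More genes were expressed at a moderate level in mature females. The number of genes at 10 FPKM or more was 5352, 5089 and 5567 at 48, 60 and 72 h, against 3436 and 4021 at 2 and 12 h, and the groups did not overlap. The means were 5336 ± 239 genes in mature and 3728.5 ± 414 in newly emerged females (SD, n = 3 and 2). After the libraries were rescaled by their median ratio, mature libraries had 4981, 4995 and 5007 such genes, against 4181 and 4291 in newly emerged ones. The 10 most abundant genes held 7.85%, 8.53% and 9.26% of all FPKM in the mature libraries, against 16.7% and 12.3% at 2 and 12 h. Both differences had an exact two-sided permutation p of 0.2, the smallest that 10 splits of 3 and 2 libraries allow. The share of the 100 most abundant genes overlapped between the groups, at 40.7%, 44.2% and 42.2% in mature libraries and 46.3% and 39.8% in newly emerged ones (exact permutation p = 1).

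The libraries lay much closer to each other in the mature group. Over 11837 genes averaging at least 1 FPKM, 0.997% differed by at least 2-fold between 48 and 60 h, 0.997% between 48 and 72 h and 1.09% between 60 and 72 h. Between 2 and 12 h, 12.0% differed by at least 2-fold. Between a mature and a newly emerged library the share was 45.3%, 43.5% and 49.7% for 48, 60 and 72 h against 2 h, and 24.6%, 23.7% and 30.3% against 12 h. The 12 h library thus stood nearer to every mature library than the 2 h library did. The pattern was the same after rescaling, with 0.988% to 1.39% within the mature group, 11.6% between 2 and 12 h, and 19.0% to 35.6% between the groups.

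Each gene was then tested with limma on log2(FPKM + 1), with Benjamini-Hochberg adjustment over all genes and a threshold of 0.05. Of 11837 genes, 6242 (52.7%) passed. Among them 5336 (45.1% of all tested) were higher and 906 (7.65%) lower in mature females. The higher genes differed by a median of 1.11 on the log2 scale (quartiles 0.86 and 1.47, median standard error 0.22). The lower genes differed by a median of -1.25 (quartiles -1.98 and -0.91, median standard error 0.25). Without any test, in 8476 genes (71.6%) the 3 mature values all lay on one side of both newly emerged values, above them in 7067 (59.7%) and below them in 1409 (11.9%).

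**Figure D1:**
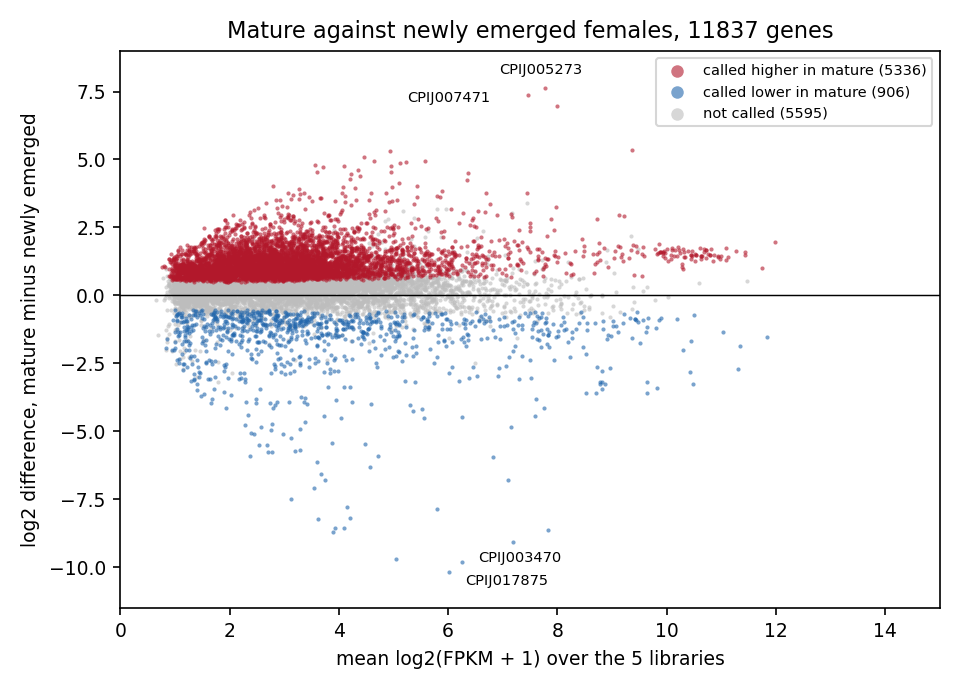
Each point is 1 of 11837 genes, placed by its mean log2(FPKM + 1) over the 5 libraries (horizontal) and by the log2 difference of mature minus newly emerged females (vertical). Red and blue points passed limma's test at an adjusted p of 0.05. The 5336 genes called higher form a broad band near 1 and include CPIJ005273 at 7.62. The 906 called lower have a median of -1.255 and include CPIJ017875 at -10.19.

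The size of the majority depended in part on the scaling of whole libraries. The median-ratio factors of the mature libraries exceeded those of the newly emerged ones by 0.37 on the log2 scale. The median difference over all genes tested was 0.59 as deposited and 0.29 after rescaling. Each factor is a median over 2761 genes, and a real change shared by most of them would move it too. A difference in scale and such a change cannot be told apart here. After rescaling, 5140 genes (43.4%) passed, 3827 (32.3%) higher and 1313 (11.1%) lower, so 74.5% of the called genes were higher, against 85.5% as deposited. All 3827 were among the 5336 called higher as deposited. Of the 906 genes called lower as deposited, 883 (97.5%) were called again, which is 67.3% of the 1313. No gene was called in opposite directions under the 2 scalings.

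On the log2(FPKM + 1) scale, the larger the difference, the larger was the share of called genes that were lower in mature females. The added 1 shrinks differences at low values. Of the called genes averaging under 10 FPKM, 3326 were higher and 403 lower, so it bears more on higher genes. The counts below are given for a pseudocount of 1 only. As deposited, 3191 genes (27.0% of those tested) were called and at least 2-fold higher in mature females, and 612 (5.17%) at least 2-fold lower. At 4-fold the counts were 445 higher (3.76%) and 223 lower (1.88%). At 10-fold they were 62 higher (0.524%) and 85 lower (0.718%). After rescaling 1833 genes (15.5%) were at least 2-fold higher and 852 (7.20%) lower, 255 (2.15%) and 273 (2.31%) at 4-fold, and 42 (0.355%) and 104 (0.879%) at 10-fold. The side with more genes at 4-fold thus depended on the scaling, and at 10-fold more genes were lower under both. Without the 12 h library the counts at 4-fold were 898 higher and 348 lower as deposited, and those at 10-fold 155 higher and 146 lower, so that order turned round. After rescaling the 10-fold counts without 12 h were 116 higher and 199 lower. Without the 2 h library 270 genes were at least 4-fold and 28 at least 10-fold higher as deposited, against 186 and 69 lower.

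**Figure D2:**
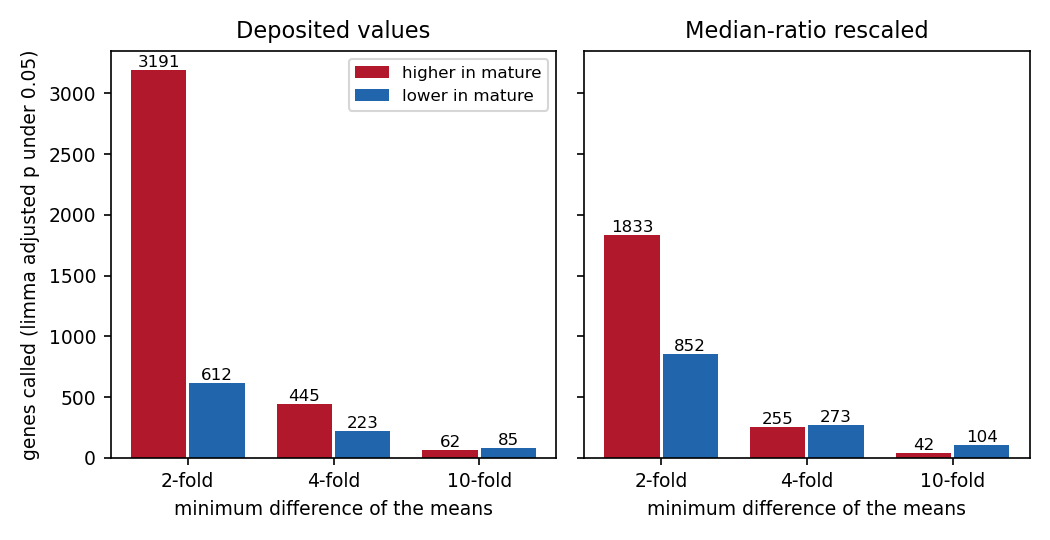
Bars give the number of genes called at a limma adjusted p of 0.05 whose group means differ by at least 2-fold, 4-fold or 10-fold on the log2(FPKM + 1) scale, for the deposited values (left) and after median-ratio rescaling (right). Higher genes lead at 2-fold in both panels, with 3191 against 612 and 1833 against 852, and lower genes lead at 10-fold in both, with 85 against 62 and 104 against 42.

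A test for differences of more than 2-fold (limma treat, adjusted p of 0.05) passed 667 genes (5.63%), 497 higher (4.20%) and 170 lower (1.44%). The higher ones had a median difference of 2.18 and the lower ones of -3.16. After rescaling 512 passed (4.33%), 316 higher (2.67%) and 196 lower (1.66%). Leaving out the 12 h library gave 2093 genes as deposited, against 367 without 48 h, 336 without 60 h, 231 without 72 h and 619 without 2 h. With the 24 h library counted as newly emerged, 6 genes passed, of which 0 were higher.

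Among the genes with the largest differences that passed the test, 2 in each direction were examined library by library. CPIJ017875 had 1.69, 2.83 and 4.45 FPKM at 48, 60 and 72 h, against 3509 and 5697 FPKM at 2 and 12 h. It was 16th in abundance at 2 h and far down the list, at rank 10873, at 48 h. The log2 difference was -10.19 ± 0.36 (standard error, limma adjusted p = 1.9e-05). The libraries at 24 and 36 h had 532 and 11.7 FPKM, so most of the decline fell between 12 and 48 h, outside the times compared.

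CPIJ003470 followed nearly the same course. It had 3.3, 3.6 and 5.2 FPKM in mature females, against 3623 and 5648 FPKM in newly emerged ones. The difference was -9.83 ± 0.29 on the log2 scale (standard error, limma adjusted p = 6.9e-06), with 1149 and 15.1 FPKM at 24 and 36 h. In both genes all mature values lay far below the newly emerged ones.

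CPIJ005273 stood at the other end. It had 2690, 1358 and 1643 FPKM at 48, 60 and 72 h, against 1.34 and 35.3 FPKM at 2 and 12 h. The log2 difference was 7.62 ± 0.99 (standard error, limma adjusted p = 0.0011). Its 24 and 36 h libraries had 3613 and 2948 FPKM, above each of the mature values. With 24 h counted as newly emerged the difference was 4.75 and the call was lost (limma adjusted p = 0.14, against 1.8e-12 to 0.011 under the other 8 alternatives tried).

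CPIJ007471 had 1210, 1264 and 1617 FPKM in mature females, against 1.35 and 27.9 FPKM in newly emerged ones. The difference was 7.36 ± 0.89 (standard error, limma adjusted p = 0.00091). At 24 and 36 h it had 446 and 656 FPKM, between the groups. Both genes that were higher also differed widely between 2 and 12 h, and their standard errors exceed those of the 2 lower genes.

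**Figure D3:**
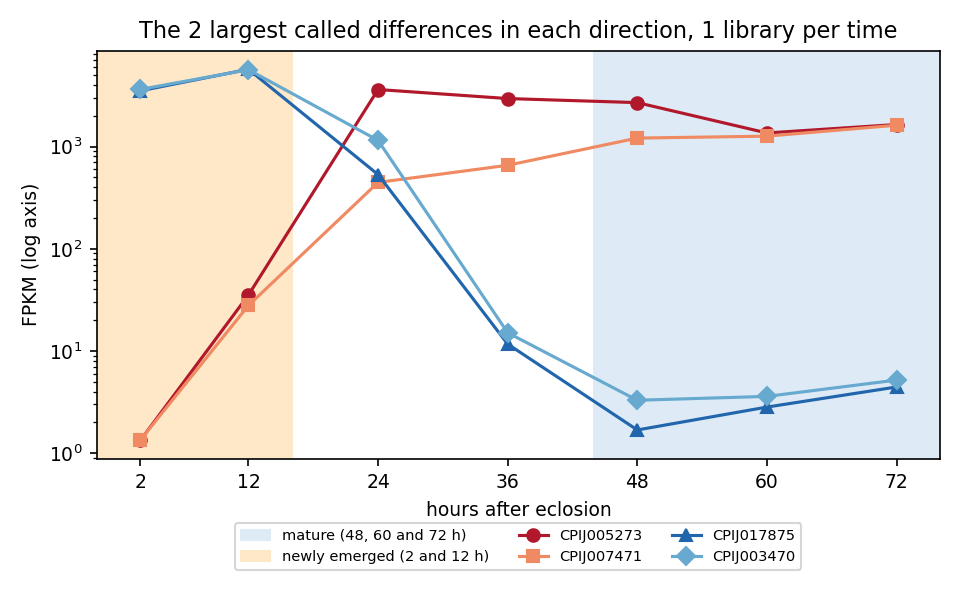
FPKM (log axis) of the 4 genes at each of the 7 times after eclosion, 1 library per point, with the mature times shaded blue and the newly emerged times shaded orange. CPIJ017875 and CPIJ003470 lie at 5.2 FPKM or less from 48 h on and at 3509 FPKM or more at 2 and 12 h, and CPIJ005273 and CPIJ007471 lie at 1210 FPKM or more from 48 h on and at 35.3 FPKM or less at 2 and 12 h.

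The groups also differed in which genes were abundant. By group means, 43 genes were shared between the 100 most abundant genes of mature and of newly emerged females. Within the mature group 94 to 96 were shared between any pair of libraries, and 81 between 2 and 12 h. These lists are picked through the group in which a gene is abundant, which favours genes higher in that group, so the next counts are a description. Over all genes tested 45.1% were called higher and 7.65% lower in mature females (32.3% and 11.1% after rescaling). Of the 100 most abundant genes in mature females, 88 were called higher and 6 lower in them (85 and 6 after rescaling). Of the 100 most abundant in newly emerged females, 60 were called lower and 33 higher in mature females (61 and 33). At the level of 1000 FPKM, 103 genes reached it in any mature library and 76 in any newly emerged library. The 25 that did both make up 24.3% of the mature and 32.9% of the newly emerged set, and 16 reached that level in all 5 libraries.

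The leading gene of each group changed by very different factors. The gene with the highest mature mean had 6487, 7302 and 7157 FPKM at 48, 60 and 72 h, against 1392 and 2266 FPKM at 2 and 12 h (log2 difference 1.97 ± 0.22, standard error, limma adjusted p = 0.00068). The gene with the highest newly emerged mean had 14.9, 23.9 and 21.4 FPKM in mature females, against 12982 and 5190 FPKM in newly emerged ones (-8.63 ± 0.41, limma adjusted p = 6.6e-05). It had already dropped to 129 FPKM at 24 h. Each kept its call after rescaling and without any 1 of the 5 libraries. These were chosen after their values were seen.

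The calls were also split by mean level over the 5 libraries. This mean weights 3 mature against 2 newly emerged libraries, and a gene can enter a high class through its mature values alone, so the change itself partly decides the counts. Of 97 genes with a mean of 1000 FPKM or more, 73 (75.3%) were called higher and 20 (20.6%) lower in mature females. Of 501 genes between 100 and 1000 FPKM, 158 (31.5%) were higher and 150 (29.9%) lower. Between 10 and 100 FPKM, 1779 of 4287 (41.5%) were higher and 333 (7.77%) lower, and under 10 FPKM 3326 of 6952 (47.8%) were higher and 403 (5.8%) lower. After rescaling the most abundant class still had 72 higher and 20 lower, while in the class from 100 to 1000 FPKM lower genes led, with 183 against 113.

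Most of the 73 very abundant genes that were higher differed by similar factors, with some far from the rest. Their median log2 difference was 1.52, with quartiles of 1.44 and 1.65, an interquartile range of 0.21. The ranges for genes called higher in the 3 classes below were 0.79, 0.71 and 0.54, from the more to the less abundant class. The SD over the 73 genes was 1.06, above the 0.96, 0.68 and 0.43 of those classes, so some members differed by very different factors. Together the 73 genes held 33.6%, 36.5% and 35.0% of all FPKM in the mature libraries, against 12.1% and 14.6% in the newly emerged ones. The 24 and 36 h libraries, which the calls did not use, lay between the groups at 25.8% and 30.04%. The 20 very abundant genes that were lower varied widely, with a median of -3.22 and quartiles of -7.05 and -1.80. They held 2.99%, 2.66% and 2.24% in mature females, against 24.1% and 16.9% in newly emerged ones.

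Summed over all called genes, the make-up of the libraries changed sides. Genes called higher held 61.7%, 64.5% and 64.4% of all FPKM at 48, 60 and 72 h, against 21.3% and 28.5% at 2 and 12 h. Genes called lower held 10.7%, 9.62% and 8.68% in mature females, against 53.4% and 40.9% in newly emerged ones. These genes were chosen for differing, so the sums describe the size of the change and are no further test of it. At 24 and 36 h the shares were 47.9% and 55.9% for genes called higher and 21.7% and 14.2% for genes called lower. The 223 genes at least 4-fold lower alone held 1.94%, 1.76% and 1.5% in mature libraries, against 32.3% and 20.3% in newly emerged ones. The 445 genes at least 4-fold higher held 6.99%, 6.74% and 6.91%, against 0.485% and 1.51%. Genes called higher held a mean of 38.7 percentage points more in mature than in newly emerged females, of which 5.88 points lay in genes at least 4-fold higher. The share of genes called lower fell by 37.5 points, and that of the genes at least 4-fold lower fell by 24.6 points.

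**Figure D4:**
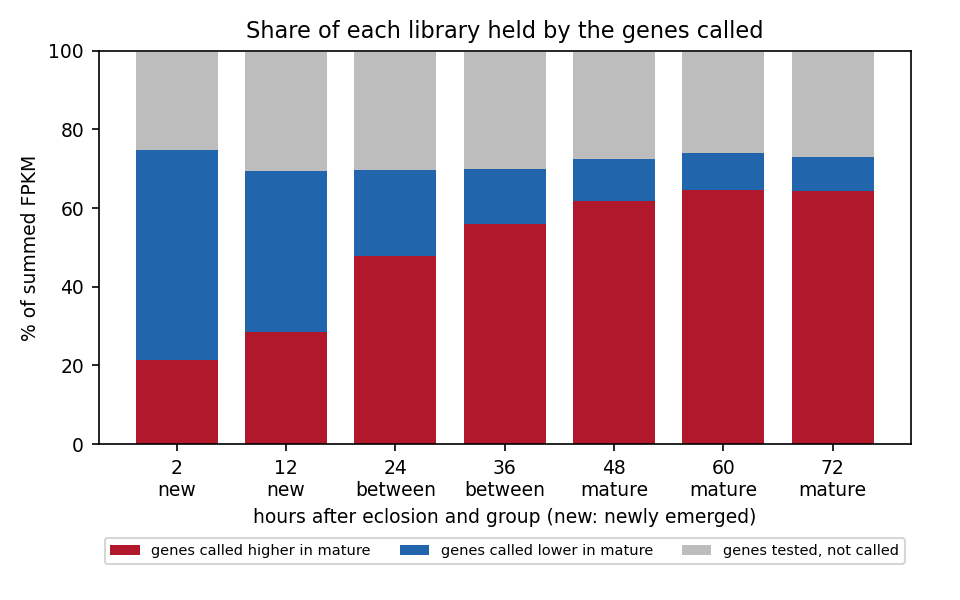
Stacked bars give the percentage of summed FPKM in each of the 7 libraries, by hours after eclosion, held by genes called higher in mature females (red), called lower (blue) and tested but not called (grey). The red part is 61.7% to 64.5% in the 3 mature libraries and 21.3% and 28.5% in the newly emerged ones, with 24 and 36 h between them.

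Few genes were nearly undetected in either group and well expressed in the other. In 20 of the 11837 genes tested, every mature library was under 1 FPKM and both newly emerged libraries were at 10 FPKM or more. Their median newly emerged mean was 57.3 FPKM and the highest 789.7 FPKM. The opposite pattern, under 1 FPKM in both newly emerged and at 10 FPKM or more in every mature library, was met by 4 of the 11837. Their median mature mean was 16.7 FPKM. A further count concerns values listed at 0, which in such a table can be failed estimates. The 3 mature libraries were at 0 and both newly emerged ones above 0 in 78 genes, 12 of which had a newly emerged mean of at least 1 FPKM. Both newly emerged libraries were at 0 and all mature ones above 0 in 216 genes, 3 of which had a mature mean of at least 1 FPKM. The 2 counts are not on an equal footing, since one asks for 3 values at 0 and the other for 2. Values at 0 were also more common at 2 and 12 h, with 4151 and 3950 genes. At 48, 60 and 72 h there were 3792, 3884 and 3228.

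At 24 and 36 h most called genes stood between the groups. For each called gene, 100% marks the mature mean and 0% the newly emerged mean on the log2(FPKM + 1) scale. The 5336 higher genes stood at a median of 61.1% at 24 h (quartiles 44.4% and 78.3%) and 73.9% at 36 h (63.7% and 85.4%). The 906 lower genes stood at 62.2% at 24 h (38.6% and 84.7%) and 86.4% at 36 h (73.7% and 98.1%). By 36 h, 92.0% of the higher and 93.3% of the lower genes were past the midpoint, against 67.6% and 63.8% at 24 h. At 36 h, 20.3% of the lower and 9.71% of the higher genes lay beyond the mature mean. After rescaling the medians at 24 h were 49.9% for higher and 70.03% for lower genes, so the gap between the directions at 24 h depended on the scaling. At 36 h they were 73.97% and 82.4%.

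**Figure D5:**
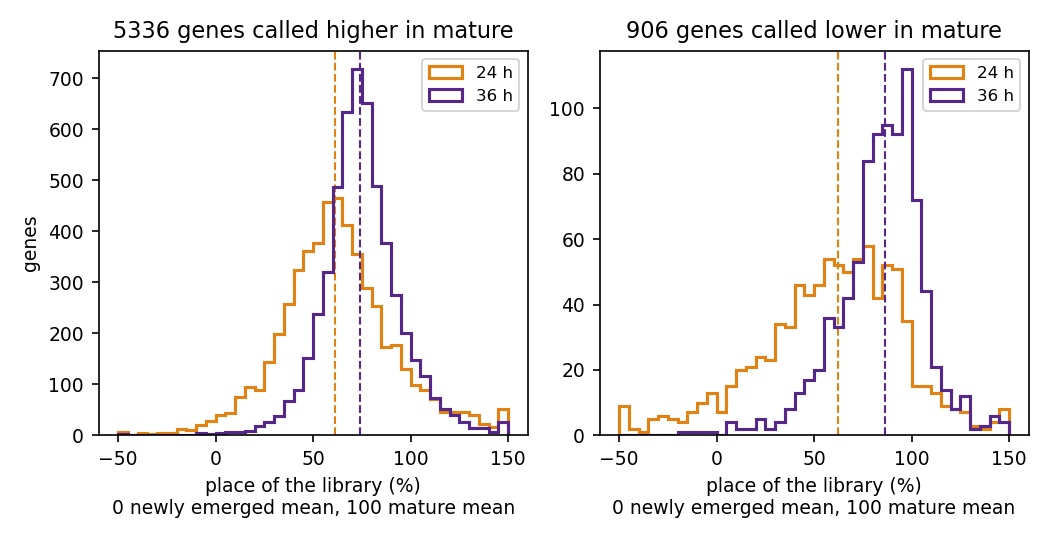
Histograms of the place of the 24 h (orange) and 36 h (purple) libraries for genes called higher (left) and lower (right) in mature females, as a percentage of the way from the newly emerged mean to the mature mean, with dashed lines at the medians and values beyond the axis put in the end bins. The medians at 24 h are alike, 61.1% and 62.2%, and those at 36 h are 73.9% and 86.4%.

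Within each group the times were not alike. Among the 3191 genes called and at least 2-fold higher in mature females, the 12 h value lay on the mature side of the 2 h value in 2907 (91.1%). Among the 612 at least 2-fold lower this held in 451 (73.7%). After rescaling the shares were 79.4% and 83.8%. In the mature group, 72 h was the highest of the 3 times in 66.5% of the higher genes (53.1% after rescaling), with a median difference of 0.16 between 72 and 48 h on the log2 scale. For the lower genes, 60 h was the lowest time in 56.9% as deposited and in 42.3% after rescaling. Shares over all genes tested are not given here, so these cannot be read as particular to the called genes. The median-ratio factors, which act on every gene, were 0.771 and 0.917 at 2 and 12 h. At 48, 60 and 72 h they were 1.10, 1.02 and 1.15, so the deposited shares also depend on the scaling.

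Large differences that missed the test came with a wide gap between 2 and 12 h, as the test requires. That gap is part of the residual spread a difference is set against, so the following counts describe these genes and support nothing further. Of 202 genes whose group means differed by at least 2-fold without a call, 197 (97.5%) differed by at least 2-fold between 2 and 12 h, against 12.0% of all genes tested. Their median gap between 2 and 12 h was 2.36 on the log2 scale, and the median range of their mature values was 0.56. The 42 that differed by at least 4-fold, 23 higher and 19 lower, all had such a gap. The uncalled gene with the largest positive difference, among those averaging at least 10 FPKM, had 383, 512 and 457 FPKM in mature females, against 4.29 and 344 FPKM at 2 and 12 h (log2 difference 3.39 ± 1.44, standard error, limma adjusted p = 0.082). The one with the largest negative difference had 0.509, 0.526 and 0.283 FPKM in mature females, against 124 and 0.36 FPKM at 2 and 12 h (-3.19 ± 1.55, limma adjusted p = 0.12). In each, the 12 h value was already near the mature ones.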

How the data were processed

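The authors deposited 1 table of 20305 genes by 7 libraries, whose values were read as FPKM. Per the file headers, the columns carry hours and no unit. The series' design text names a TopHat, Cufflinks and Cuffdiff pipeline, whose usual output is FPKM, and the deposited values are fractional. CASAVA 1.8 and Trimmomatic appear in the submitters' processing notes. Genome build, annotation, strand use and any scaling across libraries were not given in the sources used here.

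limma 3.58.1 in R 4.3.3 (lmFit, eBayes with a mean-dependent prior) was fitted to log2(FPKM + 1) of 11837 genes averaging at least 1 FPKM over the 7 libraries, 48, 60 and 72 h against 2 and 12 h, with 3 residual degrees of freedom and Benjamini-Hochberg adjustment over all genes. The pseudocount of 1 shrinks differences at low values. The treat function tested differences of more than 2-fold. Rescaling divided each library by its median ratio over the 2761 genes at 10 FPKM or more in all libraries. Genes given by identifier are the 2 largest differences in each direction among called genes averaging at least 10 FPKM whose groups do not overlap. The groups, measures and gene sets were chosen with earlier results of these data known. Depth was read from the commonest ratio among values under 0.3 FPKM. The planned gene lists by product name were not built, since the identifiers matched no names. Python 3.11.15 with numpy 2.4.6, pandas 2.3.3 and scipy 1.17.1 did the rest.

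Simulated libraries built from each gene's real mean and residual spread, with 200 of 11837 genes changed, tested the fit. For mature against newly emerged, 9 of 50 genes with a log2 difference of 1 were recovered, 33 of 50 with 2, and 48 of 50 with 3 and with 4, with 9 false calls. The simulation gave both groups the same spread, shifted no whole library and changed far fewer genes than the 52.7% called here. In the data 12.0% of genes differed at least 2-fold between 2 and 12 h, against 0.997% to 1.09% within the mature group. These counts therefore do not measure error or power in the real comparison.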

Additional observations from a re-analysis of the deposited data

How the results depend on the processing

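The count of genes differing was 2404 of 4859 with a mean of at least 10 FPKM required, fewer because fewer genes were tested, and 3159 with 24 h added to the newly emerged group, against 6242. It stayed within 1.5 times after rescaling, with a pseudocount of 0.1, without a minimum, with 36 h added to the mature group, with all 7 libraries in the fit and with a constant or robust prior. Without 1 library each it ranged from 4177 to 8298, and with rescaling as well, a setting chosen after seeing the data, from 3275 to 6867 (3302 without 72 h, 3366 without 60 h). The count of differences over 2-fold moved most, to 1065 with a pseudocount of 0.1, 291 without a minimum, 376 with a mean of at least 10 FPKM and 6 with 24 h added to the newly emerged group, against 667. It ranged from 231 to 2093 without 1 library each (336 without 60 h, 367 without 48 h). Where the newly emerged group keeps 1 library, that library is assumed to vary like the mature ones. Genes whose groups do not overlap numbered 3456 with a mean of at least 10 FPKM, against 8476. Those also at least 2-fold apart numbered 1791 with that minimum and 2353 with 24 h added to the newly emerged group, against 3880. The median place of the 24 h library was 49.9% for higher genes after rescaling, against 61.1%, and ranged from 54.8% to 77.3% for lower genes without 1 library each, against 62.2%. The median range of the mature libraries was 0.35, and their differences in pairs were 0.18, 0.20 and 0.27 (log2). The cause of these shifts was not tested, apart from the number of genes tested. Of 36 alternative values for the 4 genes given by identifier, 1 lost its call and 0 changed sign. These genes were picked as the largest called differences without overlap. Leaving out a library could not change their sign, so the count says nothing of the other calls. Depth read from low values was least at 60 h, where it would limit low values most. That reading was the weakest, with 7.98% of genes at the commonest ratio, against 10.25% to 16.53% at the other times. More genes were listed at 0 at 2 and 12 h, with 4151 and 3950, than at 60 h, with 3884. No paired analysis was possible, since each library is a pool taken at its own time and the labels pair no library with another.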

Other observations

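The 2-group comparison does not see genes that are high only between the groups. At both 24 and 36 h, 3 of 11837 genes were at least 2-fold above all 5 libraries compared, under either scaling, and 0 were at least 2-fold below all 5. At 24 h alone 14 genes were at least 2-fold above all 5 as deposited and 12 after rescaling, and at 36 h 4 and 5.

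Genes with large differences often carried successive identifier numbers. Of the 190 genes called and at least 4-fold lower in mature females that had a tested gene 1 number away, 73 (38.4%) had such a gene in the same set. Over all 10604 tested genes with a tested gene 1 number away, 269 (2.54%) had one in that set. For the genes at least 4-fold higher the shares were 83 of 400 (20.8%) and 633 of 10604 (5.97%). After rescaling they were 38.8% against 3.15% for lower and 16.9% against 3.48% for higher genes. The longest runs held 4 lower and 3 higher genes. Whether successive numbers are neighbours in the genome was not analysed here, nor was the sharing of reads between similar genes.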
